A study of Mus musculus with 6 samples.

Results

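The 45 genes described here make up the glutathione and NRF2 antioxidant system: the transcription factor NRF2 (gene Nfe2l2) and its inhibitor Keap1, the enzymes that make, recycle and use glutathione and thioredoxin, the superoxide and peroxide scavenging enzymes, ferritin, and the enzymes that supply NADPH. They were chosen by name, with earlier results of these data known. Each was represented by its brightest probe over the 6 arrays. Of the 45, 40 had a named probe and 37 passed detection, among 9808 genes tested of 19057 named genes on the array. RNA came from mouse embryonic stem (ES) cells electroporated with a pHYPER plasmid that expresses a hairpin targeting Chd4 (shChd4, 3 arrays) or given a control transfection (3 arrays), and was measured on Illumina expression arrays. Chd4 is the ATPase of the NuRD chromatin remodelling complex. In both groups the cells grew in 15% serum with LIF (leukemia inhibitory factor) on mouse embryonic fibroblast feeders inactivated with mitomycin C, and received puromycin from 24 h after transfection for 48 h. The labels do not describe the control vector, do not say whether feeder cells were removed, and do not say whether a group holds independent cultures. The p-values therefore cover only how far these samples spread, and that spread may be technical. The sample identifiers of shChd4 replicates 1 and 2 begin with Sh-D and that of replicate 3 with Sh-B, and the labels do not explain the letters. All shChd4 arrays shared 1 chip and all control arrays a second one, by the chip numbers in the labels, and effects of chip and knockdown cannot be told apart.

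NRF2 is made continuously and is marked for degradation by Keap1. When oxidants or electrophiles modify Keap1, NRF2 accumulates, pairs with small Maf proteins and binds antioxidant response elements near its target genes. Those targets include the enzymes of glutathione synthesis, the thioredoxin system, quinone and haem metabolism, ferritin and the pentose phosphate pathway. Much of this regulation acts on the NRF2 protein, which an expression array does not measure.

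Of the 37 antioxidant genes tested, 11 rose and 4 fell in shChd4 cells, and 22 did not pass. The 15 that passed compare with 38.1% of all genes tested that passed in either direction. The sulfiredoxin gene Srxn1, the transferase genes Gsto1 and Mgst1 and the secreted peroxidase gene Gpx3 had the largest rises among the 37, at 1.72 to 2.83 on the log2 scale. Nqo1, Hmox1, Akr1b8 and Akr1c18 rose by 1.14 to 1.45. The falls were Gstt2, Gsta4, Sod2 and Gpx7. Nfe2l2 and Keap1 did not pass. The rises were 29.7% of the 37 genes, against 19.9% of all 9808 genes tested, and the falls were 10.8%, against 18.2% of all genes. The median log2 fold change was 0.20 over the 37 genes and -0.05 over all genes tested. Passing means an adjusted p under 0.05 in a limma fit over all genes tested, and fold changes are shChd4 minus control throughout.

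Because detection in 3 of 6 arrays was enough to be tested, a gene could enter through the group where it was higher. Sod3 was detected on no control array and Akr1c18 on 1. With only genes detected on all 6 arrays, 34 antioxidant genes were tested, of which 9 rose and 4 fell. In that setting 17.8% of all 7970 genes rose and 21.6% fell. At least 2-fold, 8 of the 37 antioxidant genes rose and 2 fell, against 8.81% and 3.82% of all genes tested.

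**Figure D1:**
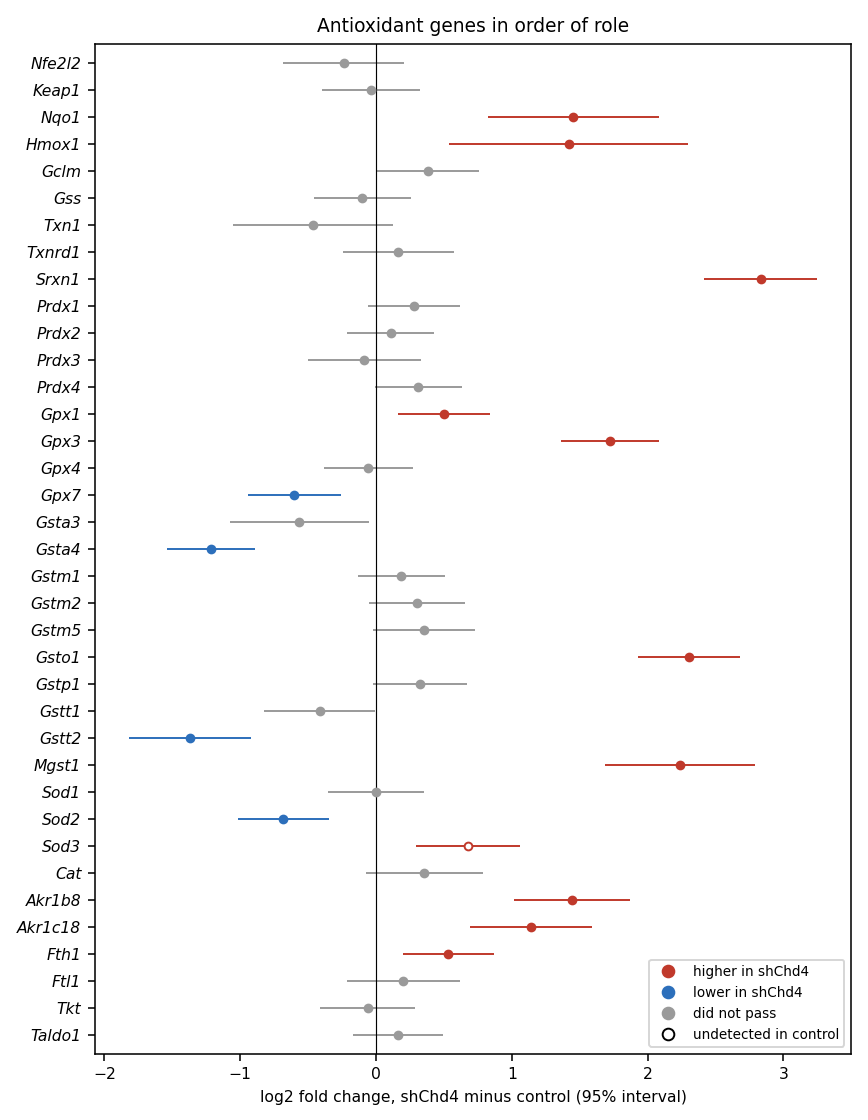
Log2 fold change of the 37 antioxidant genes tested, shChd4 minus control, in order of role from the NRF2 regulators at the top to the NADPH enzymes at the bottom. Points are limma estimates from 3 shChd4 and 3 control arrays, bars are 95% intervals without adjustment for the number of genes, and the open point, Sod3, was detected on no control array. Srxn1, at 2.83, lies farthest to the right and Gstt2, at -1.37, farthest to the left.

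Promoter windows are shown for 3 genes that hold the NRF2 binding motif and differed in outcome: Srxn1 and Mgst1 rose, and Prdx1, an established NRF2 target in mouse, did not pass. The sequences run from 250 bases before to 50 bases after the annotated start, 5′ to 3′ on the gene's strand, and are credited to RefSeq on GRCm38.p6. Capitals mark the core of the antioxidant response element, TGACNNNGC, and the AP-1 word TGACTCA, each searched on both strands; the words can overlap, as they do in Prdx1. All 3 genes lie on the plus strand, with Srxn1 at chr2:152105274-152105573, Mgst1 at chr6:138140277-138140576 and Prdx1 at chr4:116685349-116685648. A second annotated Mgst1 start held neither word.
Srxn1: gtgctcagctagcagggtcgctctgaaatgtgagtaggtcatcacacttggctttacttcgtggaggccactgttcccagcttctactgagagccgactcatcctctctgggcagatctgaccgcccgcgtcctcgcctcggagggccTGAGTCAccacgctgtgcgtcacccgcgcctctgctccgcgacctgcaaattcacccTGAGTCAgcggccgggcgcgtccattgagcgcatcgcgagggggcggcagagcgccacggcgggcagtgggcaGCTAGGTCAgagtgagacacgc
Mgst1: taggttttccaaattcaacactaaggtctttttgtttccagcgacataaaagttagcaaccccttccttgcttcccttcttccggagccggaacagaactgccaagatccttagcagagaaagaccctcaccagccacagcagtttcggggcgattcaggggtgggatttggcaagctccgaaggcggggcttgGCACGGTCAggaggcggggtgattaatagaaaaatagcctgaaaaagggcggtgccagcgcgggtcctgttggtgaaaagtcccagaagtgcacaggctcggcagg
Prdx1: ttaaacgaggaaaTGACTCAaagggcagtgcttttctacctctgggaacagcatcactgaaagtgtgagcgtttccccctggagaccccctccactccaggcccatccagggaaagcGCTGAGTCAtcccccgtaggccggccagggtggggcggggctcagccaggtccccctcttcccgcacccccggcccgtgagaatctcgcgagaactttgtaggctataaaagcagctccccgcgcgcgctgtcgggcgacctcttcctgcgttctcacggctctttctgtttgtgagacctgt
The Srxn1 window held 1 match to TGACNNNGC, first base at 29 after the start, and 2 matches to TGACTCA, at -102 and -45. Mgst1 held 1 match to TGACNNNGC at -56. These words stand on the opposite strand. In Srxn1 the AP-1 word at -45 is followed directly by gc as printed, a form that TGACNNNGC does not match. Variant forms of the element were not searched. In Prdx1 the match at -133 shares bases with the AP-1 word at -131, and a further AP-1 word lay at -237.

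Promoter windows were found for 37 of the 45 antioxidant genes, 33 of them among the genes tested, and 12 of the 37 (32.4%) held TGACNNNGC in at least 1 window. Among all 27025 genes in the RefSeq promoter table the share was 14.0%. Of the 33 antioxidant genes tested, 9 (27.3%) held the motif, against 16.7% of the 7960 tested genes found in that table. TGACNNNGC was also counted by outcome in shChd4 cells, among genes with a window. It was present in 2 of 9 risen genes, in 0 of 2 fallen genes and in 7 of 22 that did not pass. Hmox1 and Sod3, which rose, and Gsta4 and Gstt2, which fell, had no window. Sequence outside the windows was not searched. Of all 32851 windows, 12.4% held TGACNNNGC and 5.20% held TGACTCA. Counted by gene, 5 of the 37 antioxidant genes (13.5%) held TGACTCA, against 5.95% of all genes in the promoter table. Among the genes tested the shares were 4 of 33 (12.1%) and 4.46%. A match in letters is a description of the window and not a measured binding site.

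The knockdown itself was visible on every array. Chd4 had log2 intensities of 8.06, 7.91 and 8.33 on the shChd4 arrays, against 10.13, 10.13 and 10.17 on the control arrays, a log2 fold change of -2.04 with an SE of 0.16 (n = 3 per group, adjusted p = 6.33e-06 by limma). Detected probes were 37.7% to 38.7% of 45281 on shChd4 arrays and 34.9% to 35.6% on control arrays. Over genes, which do not count as replicates, arrays of 1 group correlated with r of 0.983 to 0.989 and arrays of different groups with r of 0.915 to 0.950.

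Markers of other cell types moved with the groups, on lists also chosen with earlier results of these data known. Of 27 fibroblast markers, the cell type of the feeders, 20 were tested, of which 16 rose and 0 fell in shChd4 cells, with a median log2 fold change of 2.14, or 1.13 without background correction. Of the 20, 4 were detected on no control array, and with only markers detected on all 6 arrays the median over 14 was 2.17. Their summed linear intensity was 15207 to 19988 on shChd4 arrays, against 3373 to 5130 on control arrays. Of the defining genes, Dcn, a matrix proteoglycan, and the surface marker Thy1 were detected on all 6 arrays. Col1a1, the main chain of type I collagen, and Lum were detected on no control array. Col1a2, also of type I collagen, changed by 0.31 and did not pass (limma adjusted p = 0.201), nor did Col6a2, Fbln1 and Mfap5. Postn, Fap and Col5a2 were detected on no array, and Col3a1, Ddr2 and S100a4 did not reach the filter. Of 15 ES cell markers, all tested, 9 fell and 0 rose, with a median of -0.84; their sum was 46572 to 52831 on shChd4 arrays and 60897 to 64116 on control arrays. Pou5f1 and Nanog, which define pluripotent cells, were detected on all 6 arrays, as the cell type label calls for. Of 8 macrophage markers, 4 were tested and 3 rose (Lyz2, Fcer1g and Cd14), all 3 detected on no control array and so tested only through the shChd4 arrays, with Adgre1, Ptprc and Itgam detected on no array; the sum over the 4 was 198 to 266 on shChd4 arrays and 90.9 to 106 on control arrays. Of 7 primitive endoderm markers 4 were tested and rose, of which Sox7 and Pdgfra were detected on no control array, while Gata4, Sox17 and Foxa2 did not reach the filter, and the sum was 281 to 336 on shChd4 arrays against 125 to 142 on control arrays. Of 6 trophoblast markers 4 were tested, with 1 fall and 0 rises, and the sum was 405 to 479 on shChd4 arrays against 485 to 877 on control arrays. In bulk RNA, fewer cells of a type and less RNA per cell cannot be told apart. The part of these cell types in the antioxidant results was not tested.

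The mean of the risen antioxidant genes and the mean of the fibroblast markers had the same order over the shChd4 arrays. The fibroblast mean was 8.69, 8.47 and 8.71 log2 units on shChd4 replicates 1, 2 and 3, and 6.26, 6.68 and 6.77 on control replicates 1, 2 and 3. The mean of the 11 risen antioxidant genes was 9.84, 9.39 and 9.95 on the same shChd4 arrays, and 8.19, 8.27 and 8.28 on the control arrays. Both were lowest on replicate 2 among the shChd4 arrays. The macrophage marker mean had the same order, at 5.70, 5.50 and 5.72 on shChd4 replicates 1, 2 and 3. The primitive endoderm and trophoblast marker means were instead highest on replicate 2. Of the 11 risen genes, 10 were lowest on that array, against 56.4% of all 1947 genes that rose; Gpx3 was highest there. All 4 fallen genes were highest there among the shChd4 arrays, against 47.7% of the 1788 genes that fell. All 4 were lowest on replicate 3, against 40.5% of those 1788 genes.

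**Figure D2:**
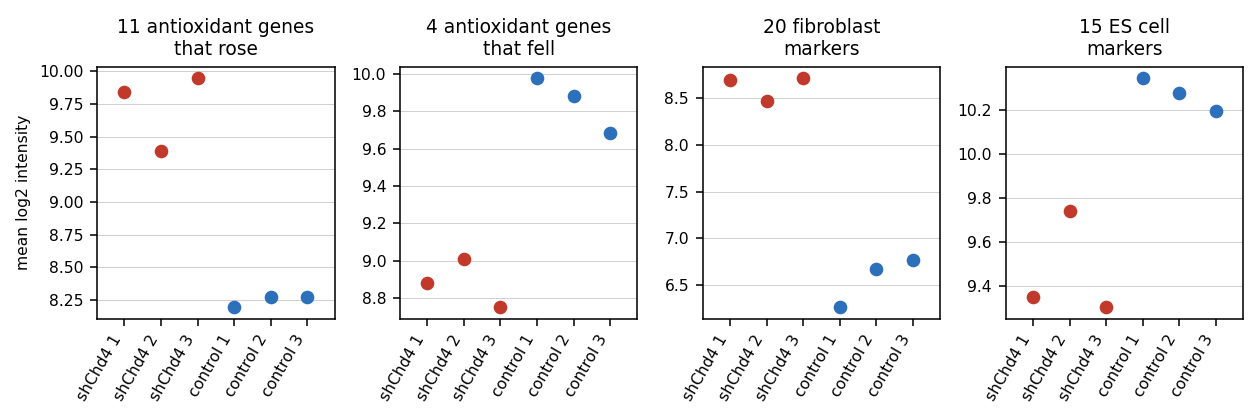
Mean log2 intensity on each array of the 11 antioxidant genes that rose, the 4 that fell, 20 fibroblast markers and 15 ES cell markers, with the 3 shChd4 arrays left of the 3 control arrays and a separate vertical scale in each panel. Among the shChd4 arrays, replicate 2 is lowest for the risen antioxidant genes (9.39) and the fibroblast markers (8.47) and highest for the fallen antioxidant genes (9.01) and the ES cell markers (9.74).

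The NRF2 regulators themselves did not pass. Nfe2l2 had log2 intensities of 6.16, 5.90 and 5.98 on shChd4 arrays, against 6.70, 6.03 and 6.02 on control arrays, and the groups overlapped, with control replicate 1 the highest array and shChd4 replicate 1 next. Its log2 fold change was -0.24 with a 95% interval of -0.68 to 0.20 (limma adjusted p = 0.381). Keap1, the substrate adaptor that targets NRF2 for degradation, had 8.03, 8.04 and 8.40 on shChd4 arrays and 8.29, 8.23 and 8.05 on control arrays, which overlapped; the change was -0.04, interval -0.40 to 0.32 (limma adjusted p = 0.881). Keap1 had 3 more detected probes, of which 2 changed by -0.07 and -0.10 and 1 by -0.65.

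Both genes of quinone and haem metabolism rose. Nqo1, a quinone reductase and a standard readout of NRF2 activity, had log2 intensities of 9.20, 7.87 and 8.66 on shChd4 arrays and 7.09, 7.40 and 6.88 on control arrays. The groups did not overlap, and the log2 fold change was 1.45 with an SE of 0.29 (adjusted p = 0.00252 by limma). Hmox1, which encodes the inducible haem oxygenase, had 9.13, 8.50 and 10.49 on shChd4 arrays and 8.25, 7.57 and 8.04 on control arrays, again without overlap. Its shChd4 arrays spread over an SD of 1.02, the widest of the 37 antioxidant genes, where the median over all genes tested was 0.205. The log2 fold change was 1.42 with an SE of 0.40 (adjusted p = 0.0162 by limma). Without shChd4 replicate 3, the highest array, it was 0.86 (limma adjusted p = 0.0266), and without control replicate 2, the lowest, the call was lost at 1.23 (limma adjusted p = 0.0579).

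Glutathione synthesis genes did not pass where they could be measured. Gclm, the modifier subunit of the rate-limiting glutamate-cysteine ligase, had 9.77, 9.41 and 9.63 on shChd4 arrays and 9.34, 9.35 and 8.97 on control arrays. The groups did not overlap, but the log2 fold change of 0.38 (95% interval 0.0035 to 0.76) had a limma adjusted p of 0.103. Gss, glutathione synthetase, changed by -0.10 (interval -0.45 to 0.25; limma adjusted p = 0.660). The probe for Gclc, the catalytic subunit of the ligase, was detected on no array, and Gsr, glutathione reductase, had no named probe.

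In the thioredoxin system Srxn1 rose, and Txn1 and Txnrd1 did not pass. Sulfiredoxin restores peroxiredoxins whose active cysteine has been oxidised too far. Srxn1 had log2 intensities of 11.29, 10.83 and 11.32 on shChd4 arrays, against 8.09, 8.55 and 8.31 on control arrays. Every shChd4 array lay more than 2 log2 units above the highest control array, and the log2 fold change was 2.83 with an SE of 0.19 (adjusted p = 2.81e-06 by limma), or 7.12-fold. Its dimmer probes showed differences of 2.02 and 2.40. Txnrd1, the cytosolic thioredoxin reductase, was detected on 2 arrays of each group and changed by 0.16 (interval -0.25 to 0.57; limma adjusted p = 0.525). Txn1, thioredoxin, had 6.28, 6.79 and 6.18 on shChd4 arrays and 7.24, 7.18 and 6.23 on control arrays; control replicate 3 lay among the shChd4 arrays, and the change of -0.46 did not pass (limma adjusted p = 0.198). Without that control array it was -0.79 and passed (limma adjusted p = 0.0175).

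None of the 4 peroxiredoxins measured, the peroxidases that Srxn1 repairs, passed. Prdx1 had 14.35, 14.14 and 14.37 on shChd4 arrays and 14.11, 13.89 and 14.03 on control arrays, without overlap; the log2 fold change was 0.28 (95% interval -0.06 to 0.62; limma adjusted p = 0.178). Prdx4, of the endoplasmic reticulum, had 11.63, 11.48 and 11.63 on shChd4 arrays and 11.24, 11.30 and 11.26 on control arrays, also without overlap, and changed by 0.31 (interval -0.01 to 0.63; limma adjusted p = 0.113). It passed without background correction at 0.30 (limma adjusted p = 0.0165). Prdx2 changed by 0.11 and the mitochondrial Prdx3 by -0.09, and their groups overlapped. A dimmer Prdx2 probe detected on all 6 arrays changed by 1.11. Prdx5 and Prdx6 had no named probe.

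**Figure D3:**
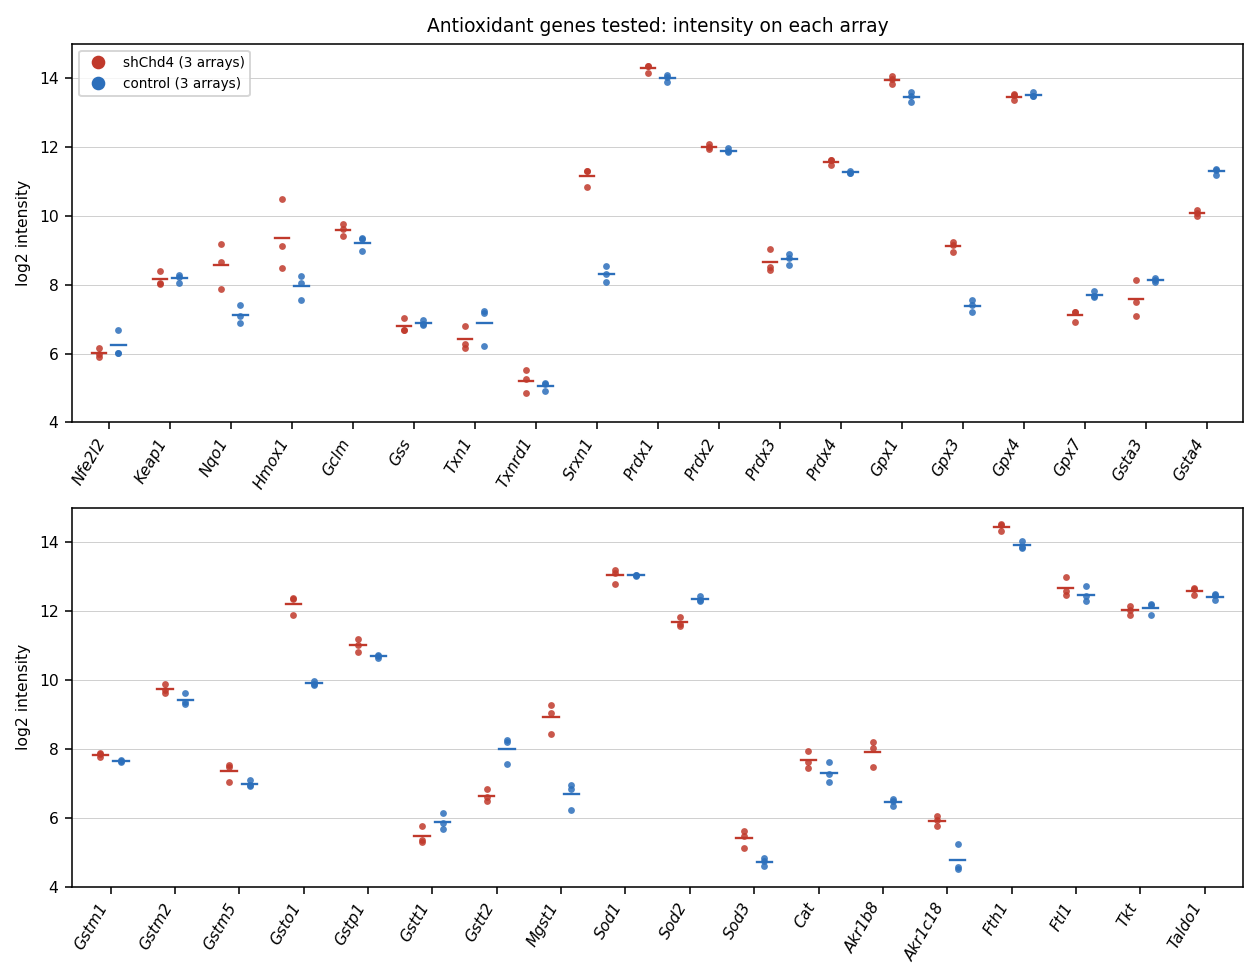
Log2 intensity of each of the 37 antioxidant genes tested on each array, with shChd4 arrays left of control arrays for every gene and a line at the group mean. Levels are comparable within a gene and not between genes, because each gene has its own probe. The groups of Srxn1 and Gsto1 are far apart, while the 3 shChd4 arrays of Hmox1 spread from 8.50 to 10.49.

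Of the 4 glutathione peroxidases, 2 rose, 1 fell and 1 did not pass. Gpx3, the secreted plasma form, had log2 intensities of 8.94, 9.26 and 9.17 on shChd4 arrays and 7.56, 7.42 and 7.21 on control arrays, a log2 fold change of 1.72 with an SE of 0.16 (adjusted p = 2.11e-05 by limma). It was the 1 risen antioxidant gene whose level was highest on shChd4 replicate 2, and its groups did not overlap. Gpx7, of the endoplasmic reticulum, had 7.20, 7.21 and 6.93 on shChd4 arrays against 7.83, 7.66 and 7.65 on control arrays. It fell by 0.60 on the log2 scale (limma adjusted p = 0.0108) with no overlap, and without background correction the change was -0.39. Gpx4, which reduces lipid hydroperoxides in membranes, changed by -0.06 (interval -0.38 to 0.27; limma adjusted p = 0.798). Gpx1, the abundant cytosolic form, had 13.97, 13.84 and 14.08 on shChd4 arrays and 13.32, 13.59 and 13.48 on control arrays. It rose by 0.50 (limma adjusted p = 0.0253), but with median scaling the change was 0.25 and did not pass (limma adjusted p = 0.269). The call was also lost without shChd4 replicate 1 or 3 (limma adjusted p = 0.0588 and 0.0764) and without control replicate 1 or 3 (0.0952 and 0.0551).

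Of 10 glutathione transferases, 2 rose, 2 fell and 6 did not pass, which is 20% in each direction, close to the 19.9% and 18.2% of all genes tested. Gsto1, of the omega class, had log2 intensities of 12.35, 11.89 and 12.38 on shChd4 arrays and 9.87, 9.96 and 9.88 on control arrays. The control arrays had an SD of 0.050, and the log2 fold change was 2.30 with an SE of 0.17 (adjusted p = 4.72e-06 by limma). Mgst1, a membrane-bound transferase, had 9.06, 8.42 and 9.28 on shChd4 arrays and 6.23, 6.85 and 6.96 on control arrays, and rose by 2.24 with an SE of 0.25 (adjusted p = 6.13e-05 by limma). A dimmer Mgst1 probe, detected on 3 arrays, changed by 1.43. Both genes had shChd4 replicate 2 as the lowest array of its group, and neither overlapped with controls.

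Gsta4 and Gstt2 fell, with no overlap between groups. Gsta4, which conjugates aldehydes from lipid peroxidation, had 10.08, 10.17 and 10.01 on shChd4 arrays and 11.37, 11.34 and 11.20 on control arrays. It fell by 1.21 on the log2 scale (adjusted p = 0.000109 by limma, SE 0.15), to 43.1% of the control level. Gstt2, of the theta class, had 6.60, 6.84 and 6.49 on shChd4 arrays and 8.26, 8.20 and 7.58 on control arrays, a log2 fold change of -1.37 with an SE of 0.20 (adjusted p = 0.000424 by limma). Its second probe changed by -1.28, and without background correction the change of Gstt2 was -0.87. The mu class genes Gstm1, Gstm2 and Gstm5 changed by 0.19, 0.30 and 0.35 and Gstp1, of the pi class, by 0.32, none of which passed. Gstm5 passed without shChd4 replicate 2 (0.50, limma adjusted p = 0.0371). Gsta3 and Gstt1 changed by -0.56 and -0.42 and also passed without that array, at -0.84 and -0.57 (limma adjusted p = 0.00650 and 0.0383). Probe sequences were not used here, so how far probes of these close paralogs share transcripts was not tested.

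Of the superoxide dismutases Sod3 rose, Sod2 fell and Sod1 did not pass. Sod1, the cytosolic enzyme, had 13.13, 13.21 and 12.81 on shChd4 arrays and 13.04, 13.05 and 13.05 on control arrays; the groups overlapped, and the change was -0.0013, interval -0.35 to 0.35 (limma adjusted p = 0.996). Sod2, the mitochondrial enzyme, had 11.65, 11.83 and 11.57 on shChd4 arrays against 12.45, 12.33 and 12.31 on control arrays, and fell by 0.68 on the log2 scale (adjusted p = 0.00487 by limma, SE 0.15) with no overlap. Sod3, the extracellular enzyme, was detected on the 3 shChd4 arrays, at 5.62, 5.12 and 5.48, and on no control array (4.74, 4.60 and 4.84 measured). Against the lowest signal detected on each control array, after background correction, it was at least 1.31-fold higher (limma adjusted p = 0.0101). Without background correction the log2 fold change of 0.20 was smaller than this bound and did not pass (limma adjusted p = 0.0774). Cat, peroxisomal catalase, changed by 0.35 with overlapping groups (interval -0.07 to 0.78; limma adjusted p = 0.177).

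Both measured aldo-keto reductases rose. Akr1b8, which reduces aldehydes, had 8.19, 7.48 and 8.03 on shChd4 arrays and 6.54, 6.50 and 6.34 on control arrays, a log2 fold change of 1.44 with an SE of 0.20 (adjusted p = 0.000228 by limma). Akr1c18, a steroid dehydrogenase that inactivates progesterone, had 5.93, 5.76 and 6.04 on shChd4 arrays and 4.59, 4.50 and 5.23 on control arrays, and rose by 1.14 with an SE of 0.20 (adjusted p = 0.00138 by limma). Without background correction the changes were smaller, 0.88 and 0.38, and both still passed. Akr1b3, aldose reductase, had no named probe.

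Ferritin stores iron in a shell of heavy and light chains. Fth1, the heavy chain, had 14.54, 14.32 and 14.51 on shChd4 arrays and 13.85, 14.05 and 13.88 on control arrays, and rose by 0.53 (adjusted p = 0.0177 by limma, SE 0.15). A second probe changed by 0.44. The call was lost with median scaling (0.33, limma adjusted p = 0.153), without shChd4 replicate 1 or 3 (0.0540 and 0.0502) and without control replicate 1 or 3 (0.0612 and 0.0515). Ftl1, the light chain, had overlapping groups and changed by 0.20 (interval -0.22 to 0.62; limma adjusted p = 0.438).

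Genes of NADPH supply gave no call. Tkt, transketolase, had 11.91, 12.03 and 12.17 on shChd4 arrays and 12.21, 12.17 and 11.90 on control arrays. Taldo1, transaldolase, had 12.47, 12.64 and 12.66 on shChd4 arrays and 12.32, 12.46 and 12.49 on control arrays. Both pairs of groups overlapped, with changes of -0.06 (interval -0.41 to 0.29) and 0.16 (interval -0.17 to 0.49). Me1, malic enzyme, was detected on 2 arrays and was not tested; its log2 intensities were 4.93, 4.62 and 5.20 on shChd4 arrays and 4.40, 4.44 and 4.56 on control arrays. The Pgd probe was detected on no array, and G6pdx, the first enzyme of the pentose phosphate pathway, had no named probe.

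Over the 37 genes tested, 20 had groups that did not overlap, against 50.3% of all genes tested. Of the 22 that did not pass, 5 were among these, 12 had positive and 10 negative estimates from -0.56 to 0.38, and the half-width of their 95% intervals was 0.32 to 0.59. The median within-group SD of the 37 genes was 0.190 on shChd4 arrays and 0.118 on control arrays, against 0.205 and 0.178 for all genes tested.

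**Figure D4:**
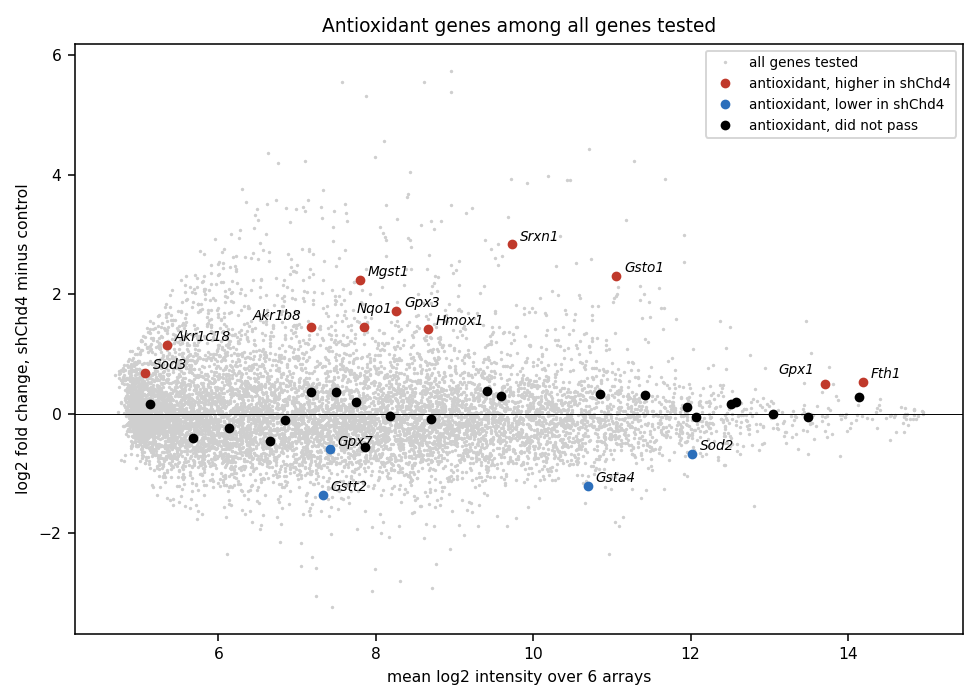
Log2 fold change (shChd4 minus control) against mean log2 intensity over 6 arrays for the 9808 genes tested (grey) and the 37 antioxidant genes (coloured by outcome, those that passed named). The 11 risen genes include dim (Sod3), intermediate (Srxn1, Gsto1) and bright probes (Gpx1, Fth1), and the 22 that did not pass, in black, lie between -0.56 and 0.38.

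Other genes of the pathway were taken from a list of 91 that extends the same functions to NRF2 relatives, glutathione transport and breakdown, other transferases and peroxidases, glutaredoxins, reductases, NADPH enzymes and iron handling. This list was also drawn up with earlier results of these data known. Of 62 tested, 18 rose and 12 fell in shChd4 cells, which is 29.0% and 19.4%, against 19.9% and 18.2% of all genes. Of the 18, Slc7a11, Nfe2, Abcc1 and Gsto2 were detected on no control array and were tested only through the shChd4 arrays. With only genes detected on all 6 arrays, 15 of 56 rose and 12 fell, where 17.8% and 21.6% of all genes did. The median log2 fold change was -0.01. Without control replicate 1 the falls were 7. In that fit 54.1% of all genes that passed were rises, against 52.1% with all 6 arrays. By function, 4 of 9 NRF2 relatives and partners rose and 1 fell, 4 of 10 further transferases and peroxidases rose and 3 fell, 5 of 15 further reductases and detoxification enzymes rose and 4 fell, and 0 of 7 further NADPH genes rose and 1, Idh2, fell. Of 5 transport and breakdown genes tested, 2 rose and 1 fell, of 12 further thioredoxin and glutaredoxin genes 1 rose and 2 fell, and of 4 iron genes 2 rose.

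The 2 further glutathione peroxidases had the largest changes of this list. Gpx2, best known from gut epithelium, had log2 intensities of 9.73, 9.73 and 9.31 on shChd4 arrays and 6.76, 6.35 and 6.78 on control arrays, a log2 fold change of 2.96 with an SE of 0.19 (adjusted p = 2.28e-06 by limma). Gpx8, a membrane protein of the endoplasmic reticulum, had 10.46, 9.95 and 10.47 on shChd4 arrays and 6.41, 7.62 and 7.55 on control arrays, and rose by 3.10 with an SE of 0.29 (adjusted p = 2.06e-05 by limma). Its dimmer probes showed differences of 3.13 and 2.74. Neither gene's groups overlapped.

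Slc7a11, the cystine importer that supplies glutathione synthesis, had 7.02, 6.56 and 7.10 on shChd4 arrays and was detected on no control array (4.63, 4.55 and 4.87 measured). It was at least 3.69-fold higher (adjusted p = 9.49e-06 by limma), a bound set by the lowest signal detected on each array, and a second probe, detected on 3 arrays, changed by 0.82. Without background correction the log2 fold change of Slc7a11 was 0.87, which is smaller than this bound. Ephx1, microsomal epoxide hydrolase, had 10.24, 9.88 and 10.47 on shChd4 arrays and 7.47, 7.46 and 8.20 on control arrays, and rose by 2.49 with an SE of 0.23 (adjusted p = 1.80e-05 by limma). Esd, which hydrolyses formylglutathione, rose by 2.13 and Pon2, a lactonase, by 1.22 (limma adjusted p = 0.000133 and 0.000174). The 3 dimmer Esd probes, detected on 3, 3 and 4 arrays, showed differences of 0.75, 0.99 and 2.31. Without background correction the change of Esd was 1.07. Glrx, the cytosolic glutaredoxin that removes glutathione from proteins, had 10.66, 10.69 and 11.04 on shChd4 arrays and 8.96, 8.96 and 9.35 on control arrays, and rose by 1.71 (limma adjusted p = 3.88e-05); a second probe changed by 2.82.

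An iron transporter and a haem transporter rose. Slc40a1, ferroportin, which exports iron from cells, rose by 1.46 and Slc48a1, a haem transporter of the endosome and lysosome, by 1.26 (limma adjusted p = 0.000107 and 0.000257). Their lowest shChd4 arrays were 7.84 and 9.19, against highest control arrays of 6.78 and 8.39. Without background correction the change of Slc40a1 was 0.91. Sqstm1, an autophagy receptor that binds Keap1, rose by 1.97 (limma adjusted p = 2.30e-05). Among transcription factors, Bach1, a repressor that competes with NRF2 for its elements, rose by 0.74 and Nfe2l1, a relative of NRF2, by 0.51 (limma adjusted p = 0.00640 and 0.0248). Nfe2, another relative, was detected on no control array and was at least 1.81-fold higher (limma adjusted p = 0.00150), a bound taken after background correction. The small Maf gene Mafg changed by 0.37 and did not pass (limma adjusted p = 0.0611).

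Reductases outside the 45 genes included falls. Cbr3, a carbonyl reductase, changed by -0.92, Aldh3a1, an aldehyde dehydrogenase, by -0.93, and Nqo2, a relative of Nqo1, by -0.75 (limma adjusted p = 0.0104, 0.00398 and 0.00355). Nqo2 had 7.16, 7.20 and 6.97 on shChd4 arrays and 7.82, 7.73 and 8.02 on control arrays, opposite in sign to Nqo1 and without overlap, and its other detected probes changed by -0.77 and -0.66. Gstp2, a close copy of Gstp1, changed by -0.72 (limma adjusted p = 0.0135), and Ccs, the copper chaperone of Sod1, by -0.84 (limma adjusted p = 0.00231). These genes, with Bach1, Nfe2l1, Nfe2 and Mafg, were named after their values were seen.

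**Figure D5:**
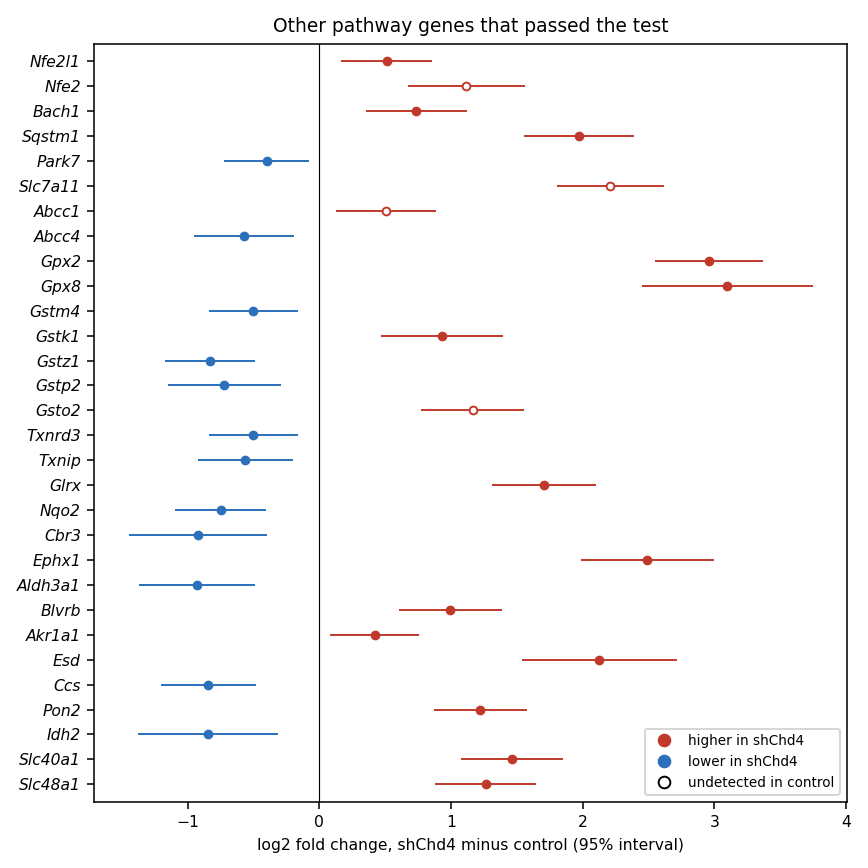
Log2 fold change (shChd4 minus control) of the 30 other pathway genes that passed the test, in order of function; points are limma estimates from 3 shChd4 and 3 control arrays, bars are 95% intervals, and open points were detected on no control array. The 18 rises reach 3.10 for Gpx8, and the 12 falls lie between -0.93 and -0.40.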

How the data were processed

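The authors deposited a scanner table with linear intensities of 45281 probes on 6 arrays and their detection p-values, as named per the file headers, and a second table of intensity values. The submitters' processing notes name GenomeStudio; other steps are not given in the sources used here. The scanner intensities had medians from 110.9 to 118.9 and showed no background subtraction or scaling, while the second deposited table had almost the same distribution on each array (medians of 115.159 to 115.186), and served as an alternative. Its values ranked the probes as the scanner intensity of the same array did and lay on the same linear scale.

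Background was corrected by normexp from the detection p-values with an offset of 16, followed by quantile normalisation and log2, as in neqc of limma 3.58.1 (R 4.3.3). Fold changes of dim genes are understated by the offset. Probes took their gene from the GEO platform annotation (34885 with 1 symbol, 18 with several, 10378 not named), updated through Entrez identifiers to RefSeq GRCm38.p6 symbols for 34807; only probes with a single symbol were used. A gene was tested if its brightest probe had a detection p under 0.05 on at least 3 arrays. Groups were compared by limma (lmFit, eBayes, group as the only term) with Benjamini-Hochberg adjustment over 9808 genes. Arrays are numbered in accession order only as names. Arrays give no read depth, and their number limits the precision. The steps were tested on simulated arrays. In all, 13 alternatives were run, 6 of them leaving out 1 array each.

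The 45 members, the 91 other pathway genes and the marker lists were chosen with earlier results of these data known. The naming rule took 6 antioxidant genes whatever their values (Nfe2l2, Keap1, Nqo1, Hmox1, Gclc and Gclm), in each role the up to 3 with the smallest p and, in roles of 4 or more, the 1 with the largest p, and of the other pathway genes the 10 with the smallest p; the remaining members are given more briefly.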

Additional observations from a re-analysis of the deposited data

How the results depend on the processing

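The counts of antioxidant genes stayed within 1.5 times the reported 11 rises and 4 falls in all 13 alternatives, with 9 to 12 rises and 4 to 6 falls. Leaving out 1 array each gave 9 to 12 rises and 4 to 6 falls of the antioxidant genes, and of the other pathway genes 15 to 18 rises and 7 to 12 falls. Srxn1, Gsto1, Mgst1, Gpx3, Nqo1, Gsta4, Gstt2, Sod2 and Gpx7 passed in all 13 alternatives, and Akr1b8 in 13 and Akr1c18 in the 12 that could test it. With the authors' values, as with no background correction, fold changes of dim genes were smaller: Gpx7 -0.39, Gstt2 -0.87, Akr1b8 0.88, Slc7a11 0.87, Slc40a1 0.91 and Esd 1.07 in both, Akr1c18 0.38, and Sod3 0.20, with the Sod3 call lost. The Hmox1 call was also lost with no detection filter (1.42, limma adjusted p = 0.0922), where 19057 genes were tested. Several genes that did not pass in the reported fit had an estimate near 0 whose sign turned. With median scaling these were Gss (0.024), Prdx2 (-0.11), Ftl1 (-0.033) and Taldo1 (-0.073). Leaving out 1 array each gave -0.16 to 0.024 for Keap1, -0.27 to 0.034 for Prdx3, -0.086 to 0.00052 for Gpx4, -0.081 to 0.12 for Sod1 and -0.16 to 0.0022 for Tkt. Prdx4 passed with the authors' values or uncorrected background (0.30) and with no detection filter (0.31), and Gstp1 passed with the authors' values or uncorrected background (0.31). The fibroblast marker median was 1.13 without background correction, against 2.14 as reported. The cause of these changes was not tested. No paired analysis was possible because the labels carry no replicate numbers. With 3 arrays a group, signal close to background limits what dim probes such as Txnrd1 and Sod3 can show.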
